A study of Mus musculus with 30 samples.

Results

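The main growth factor systems of blood and lymph vessels are described here through 10 of the 35120 genes counted. These are the ligand genes Vegfa, Vegfb, Vegfc, Pgf, Angpt1 and Angpt2, and the receptor genes Kdr, Flt1, Flt4 and Tek. They were chosen by name, as 6 ligands and 4 receptors after earlier results of these data were known, and all 10 passed the filter on low counts in each fit. The series holds 30 mRNA libraries from mouse white fat, and its title names β-catenin deficiency as the subject. Mice labelled Ctnnb1AdKO (called knockout below, as a label) were compared with Ctnnb1fl/fl controls matched for sex and age. Fat was digested with collagenase and spun, so that buoyant adipocytes separated from the pelleted stromal-vascular cells (SVC), which are a mixture of preadipocytes, immune cells and vessel cells. There were 6 libraries of male control adipocytes, 5 of male knockout adipocytes, 6 of female control adipocytes, 6 of female knockout adipocytes, 3 of male control SVC and 4 of male knockout SVC.

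Vessel growth is driven by secreted ligands that bind receptor tyrosine kinases on endothelial cells. VEGF-A signals through VEGFR2 (Kdr) and is also bound by VEGFR1 (Flt1), which acts largely as a decoy in the endothelium, while VEGF-B and placental growth factor (Pgf) bind VEGFR1 and not VEGFR2. VEGF-C acts through VEGFR3 (Flt4), the main receptor of lymphatic endothelium, and angiopoietin 1 stabilises vessels through Tie2 (Tek), an action that angiopoietin 2 can oppose. In fat, adipocytes are a known source of VEGF-A, and VEGF signalling shapes the vessel bed of the tissue.

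Total counts per library lay between 20484836 and 22209603. The labels name epididymal and posterior subcutaneous fat for every library, and females have no epididymal fat, so that sex and depot cannot be told apart. Ctnnb1, the β-catenin gene, was at 308 to 341 CPM (counts scaled to a library total of 1000000) in male control adipocytes and at 308 to 368 CPM in male knockout adipocytes, at 291 to 359 and 283 to 367 CPM in females and at 442 to 553 and 353 to 748 CPM in SVC. It differed by -0.03, 0.11 and 0.08 on the log2 scale between the genotypes (adjusted p = 0.919, 0.670 and 0.979). The labels give neither the driver of the deletion nor the deleted part of the gene, which counts over the whole gene can miss, so the deficiency was not verified in these libraries. They do not state whether replicates are separate mice either. A p-value here stands for the spread among libraries, which may be technical. The fractions matched their labels in the adipocyte markers: summed over 10 markers these were at 33410 to 57200 CPM in adipocyte libraries and at 281.8 to 1562 CPM in SVC. None of 15 endothelial markers was at 0 in any group mean. Their sum was 217 to 492.9 CPM in male control adipocytes and 929.8 to 1679 CPM in control SVC, so the adipocyte fraction held endothelial RNA. SVC knockout replicate 1 stood apart, with an endothelial sum of 3724 CPM where the other 3 SVC knockout libraries ranged from 595 to 1581 CPM, and results that rest on it are given with and without it. In such bulk libraries fewer cells of a type and less RNA per cell cannot be told apart.

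The 10 genes fell on both sides of the comparison of fractions. The ligands Vegfa, Vegfb and Angpt1 were higher in male control adipocytes than in control SVC. The ligands Vegfc, Pgf and Angpt2 and all 4 receptors were lower there. Each of the 10 passed the test (edgeR quasi-likelihood, Benjamini-Hochberg adjusted p below 0.05), but so did 77.1% of the 17251 genes tested, 32.8% as higher in adipocytes and 44.2% as lower, so the count by itself does not set these genes apart. The median log2 difference was -0.29 for the ligands, -1.63 for the receptors and -0.30 for all genes. In 9 of the 10 genes no adipocyte library overlapped an SVC library in CPM, and neither did any in 74.7% of all genes tested.

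Of the higher and the lower genes, 4 are shown by the 250 bases before their transcription start, as examples of each direction: Vegfa and Vegfb, the most abundant ligands of adipocytes per length, and Kdr and Tek, the main receptors of VEGF-A and of the angiopoietins. The sequences are from RefSeq on build GRCm38.p6, which differs from the authors' mm39, read 5′ to 3′ on the gene's strand, with the GC box GGGCGG and its reverse complement in capitals. The windows are chr17:46032378-46032627 (minus strand) for Vegfa, chr19:6987652-6987901 (minus strand) for Vegfb, chr5:75978456-75978705 (minus strand) for Kdr and chr4:94739039-94739288 (plus strand) for Tek.
Vegfa: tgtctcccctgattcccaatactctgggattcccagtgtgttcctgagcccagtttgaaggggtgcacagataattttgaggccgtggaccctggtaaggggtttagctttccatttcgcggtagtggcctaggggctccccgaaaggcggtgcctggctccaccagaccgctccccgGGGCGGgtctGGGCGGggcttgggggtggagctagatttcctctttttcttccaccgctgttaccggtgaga
Vegfb: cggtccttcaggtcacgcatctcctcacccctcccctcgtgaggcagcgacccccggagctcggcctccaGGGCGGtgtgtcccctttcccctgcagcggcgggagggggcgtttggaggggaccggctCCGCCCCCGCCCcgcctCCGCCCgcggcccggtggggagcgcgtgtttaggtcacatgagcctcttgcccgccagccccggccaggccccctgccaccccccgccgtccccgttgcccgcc
Kdr: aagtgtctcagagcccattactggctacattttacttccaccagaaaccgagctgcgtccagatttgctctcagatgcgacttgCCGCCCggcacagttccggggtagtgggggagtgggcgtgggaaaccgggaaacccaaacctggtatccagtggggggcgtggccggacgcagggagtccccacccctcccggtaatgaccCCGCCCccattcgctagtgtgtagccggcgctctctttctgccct
Tek: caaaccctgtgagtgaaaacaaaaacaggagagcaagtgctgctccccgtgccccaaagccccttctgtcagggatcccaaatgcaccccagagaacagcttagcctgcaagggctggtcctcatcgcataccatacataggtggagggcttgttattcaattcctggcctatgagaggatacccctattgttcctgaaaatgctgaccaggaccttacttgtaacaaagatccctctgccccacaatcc
The Vegfb window held 26 CpG dinucleotides and 4 GC boxes, and that of Vegfa 11 CpG and 2 boxes (a second RefSeq window of Vegfa, not shown, had 7 and 1). The Kdr window held 16 CpG and 2 boxes, whereas that of Tek held 2 CpG and no box. RefSeq gave 10 windows for 8 of the members, of which 8 windows held at least 1 GC box, beside 32.7% of all 32851 windows of that length. GC content was 76.4% for Vegfb and 51.2% for Tek, beside a median of 52.4% over all windows. The motif was chosen after the values were seen, and a match is a description of the letters only.

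Vegfb, whose product binds VEGFR1, was the ligand that was higher in adipocytes by the most. In male control adipocytes it ranged from 190.7 to 236 CPM with a median of 224 CPM, and the 3 control SVC libraries were at 9.53, 12.8 and 13.6 CPM. Every adipocyte library thus lay far above every SVC library. In the fit the log2 difference was 4.72 (SE 0.20, adjusted p = 6.41e-12), a 26.3-fold higher level in adipocytes. Fold changes here use the TMM scaling of edgeR, whose mean factor was 0.863 for control adipocytes and 1.27 for control SVC, and are larger than the ratio of mean CPM for genes that are higher in adipocytes.

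Vegfa, the main driver of angiogenic sprouting, was also higher in adipocytes. It lay between 192.5 and 266 CPM in the 6 control adipocyte libraries, with a median of 233 CPM, and at 97.1, 84.7 and 76.8 CPM in the 3 control SVC libraries. The groups did not overlap. The difference was 1.96 on the log2 scale (SE 0.28, adjusted p = 6.89e-06), or 3.88-fold. The CPM of Vegfa per CPM of Vegfb was 7.49 ± 2.39 in control SVC (SD, n = 3) and 1.06 ± 0.213 in control adipocytes (n = 6). CPM does not allow for gene length. Per kilobase of exon, Vegfa and Vegfb were at 20.1 and 7.46 CPM in control SVC and at 53.4 and 136.5 CPM in control adipocytes.

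Angpt1, the stabilising ligand of Tie2, was the third ligand that was higher in adipocytes, by a smaller margin. Its control adipocyte libraries ranged from 17.6 to 27.1 CPM with a median of 21.1 CPM, and the SVC libraries were at 12.8, 19.6 and 13.2 CPM. SVC control replicate 2 lay within the adipocyte range, so the groups overlapped. The log2 difference was 1.03 (SE 0.24, adjusted p = 0.000989). With library totals alone it was 0.48 (adjusted p = 0.0645) and did not pass, so its call rests on the scaling. In the whole table that scaling moved the median of all genes from -0.30 to -0.85 and the share of calls that were higher in adipocytes from 42.6% to 28.1%.

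Vegfc, the ligand of the lymphatic receptor VEGFR3, was the ligand most strongly placed in SVC. The 3 control SVC libraries were at 26.9, 31.4 and 17.0 CPM, while the 6 control adipocyte libraries lay between 0.363 and 1.36 CPM with a median of 0.769 CPM. The adipocyte values rest on few reads, as few as 8 in a library. The log2 difference was -4.43 (SE 0.30, adjusted p = 7.24e-10), a 21.6-fold lower level in adipocytes. With library totals alone it was -4.995 for Vegfc beside 4.19 for Vegfb, so which of these 2 differed more depends on the scaling. Genes listed as markers of lymphatic endothelium had a median log2 difference of -5.42 in the same comparison, with 7 of 7 called. In control SVC they averaged from 4.23 CPM (Prox1) to 421.5 CPM (Fgl2), and the list was not shown to be specific to that cell type. The 10 of 10 preadipocyte and fibroblast markers were also lower, with a median of -4.87, where 44.2% of all genes were called lower. Their part in the Vegfc result was not tested.

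Pgf and Angpt2 were lower in adipocytes too. Pgf, the VEGFR1 ligand first found in placenta, was at 26.1, 23.6 and 14.3 CPM in control SVC and at 1.22 to 3.26 CPM in control adipocytes (median 2.79). Its log2 difference was -2.53 (SE 0.27, adjusted p = 2.51e-07). Angpt2, which endothelial cells store and release, was at 9.39, 13.0 and 6.28 CPM in control SVC and at 1.08 to 3.12 CPM in control adipocytes (median 2.11). From SVC to adipocytes the log2 difference was -1.61 (SE 0.46, adjusted p = 0.00443). In both genes every SVC library was above every adipocyte library. The CPM of Angpt2 per CPM of Angpt1 was 0.10 ± 0.0443 in control adipocytes (n = 6) and 0.624 ± 0.133 in control SVC (n = 3), and these ranges did not overlap.

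**Figure D1:**
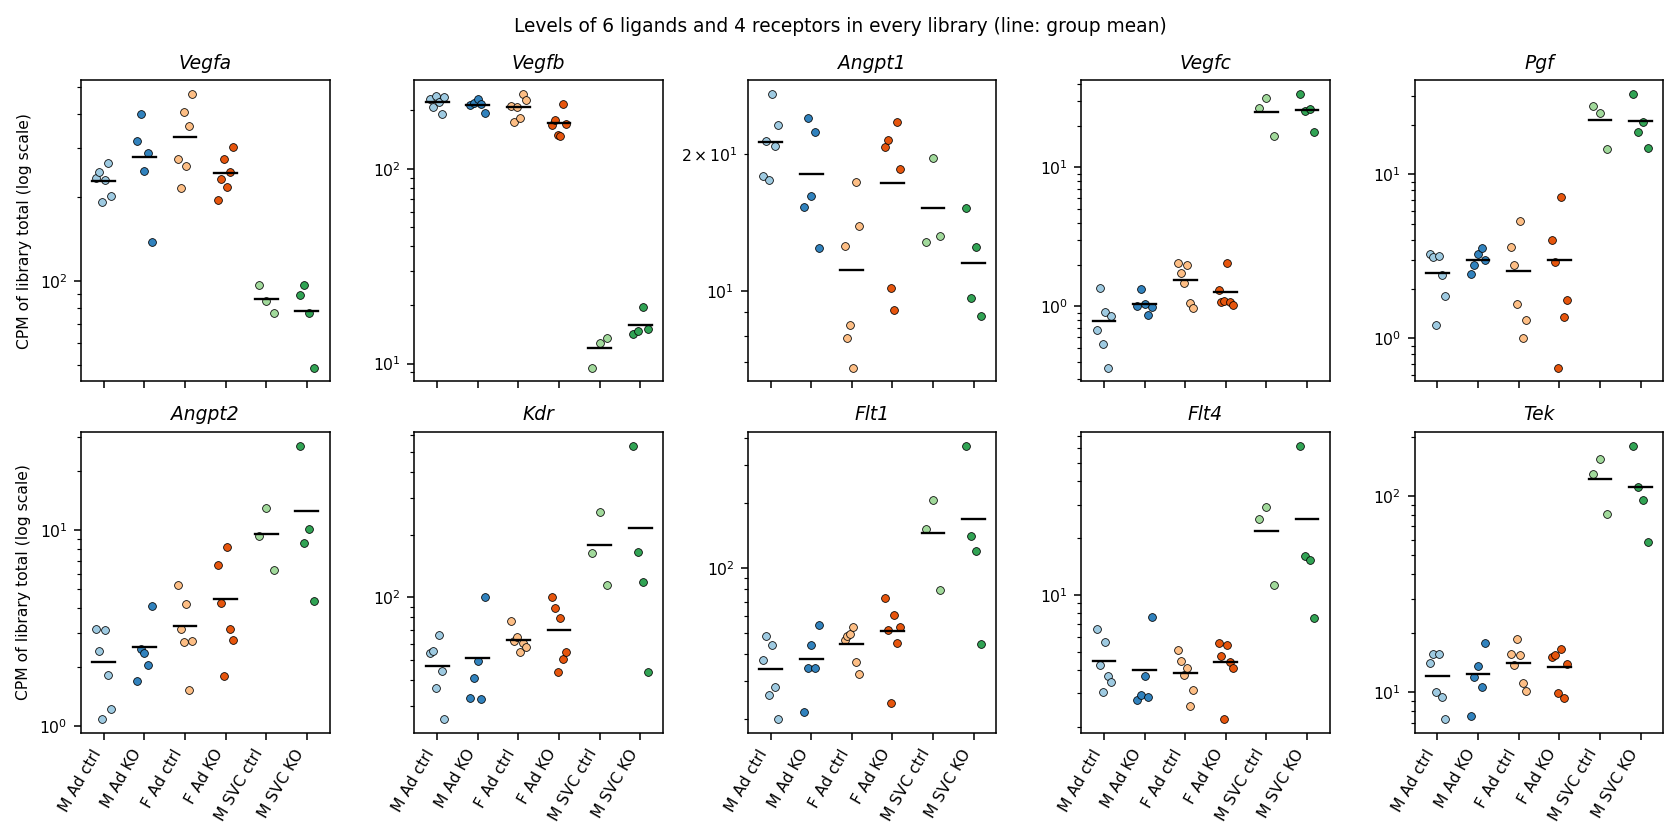
CPM of library total (log axis, own range per panel) of the 6 ligand and 4 receptor genes in each of 30 libraries. Points are libraries of male (M) or female (F) adipocytes (Ad) or SVC, control (ctrl) or knockout (KO), and lines are group means. Vegfa and Vegfb are higher in every adipocyte library than in every SVC library, while Vegfc, Pgf and Tek are higher in every SVC library.

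The 4 receptors were lower in adipocytes, and Tek by the most. Tek, the angiopoietin receptor, was at 129.7, 155 and 81.4 CPM in the control SVC libraries and at 7.28 to 15.7 CPM in control adipocytes (median 12.1). Every SVC library was above every adipocyte library. On the log2 scale the difference was -2.78 (SE 0.32, adjusted p = 5.82e-07), a 6.88-fold lower level in adipocytes. Kdr, the signalling receptor of VEGF-A, was at 162.5, 257 and 114 CPM in control SVC and at 25.9 to 65.7 CPM in control adipocytes (median 49.1). Its groups did not overlap either, and SVC control replicate 2 was the highest. The difference was -1.36 (SE 0.55, adjusted p = 0.0334) and did not hold in every setting. The adjusted p was 0.0572, 0.0526 and 0.0637 without male adipocyte control replicate 3, 5 or 6, and 0.159 without SVC control replicate 2.

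Flt1, the decoy receptor, was at 152, 207 and 79.8 CPM in control SVC and at 20.0 to 48.5 CPM in control adipocytes (median 32.9). Its log2 difference was -1.53 (SE 0.47, adjusted p = 0.00691). It lost the call without SVC control replicate 2 (-1.20, adjusted p = 0.0538), the control SVC library that was highest in all 4 receptors. Flt4, a receptor of VEGF-C, was at 25.2, 29.2 and 11.2 CPM in control SVC and at 3.06 to 6.56 CPM in control adipocytes (median 3.99). The difference was -1.72 (SE 0.51, adjusted p = 0.00541), with no overlap. In the same comparison the median was -5.42 for the lymphatic markers and -1.18 for the endothelial markers. Which of these cells the Flt4 RNA came from was not tested.

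The receptors were set beside markers of endothelial cells, the cells that carry them in vessels. Of the 15 endothelial markers, 9 were called lower in control adipocytes and none higher, with a median log2 difference of -1.18. Of all genes tested 44.2% were called lower. Kdr stood at 12.9 ± 1.84 per 100 CPM of summed endothelial markers in control adipocytes (SD, n = 6) and at 13.0 ± 2.00 in control SVC (n = 3), and Flt1 at 9.31 ± 1.12 and 10.6 ± 1.89. Flt4 stood at 1.24 ± 0.242 and 1.58 ± 0.320. Tek stood at 3.31 ± 0.452 in control adipocytes (2.82 to 3.93) and at 9.06 ± 0.265 in control SVC (8.76 to 9.24), without overlap. In the knockout libraries the Tek ratio was 3.19 ± 0.227 in male adipocytes (n = 5) and 7.17 ± 2.04 in SVC (n = 4, 4.85 to 9.82), also without overlap. Angpt2 was at 0.563 ± 0.107 and 0.705 ± 0.0604 in control adipocytes and control SVC. These ratios were not tested.

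**Figure D2:**
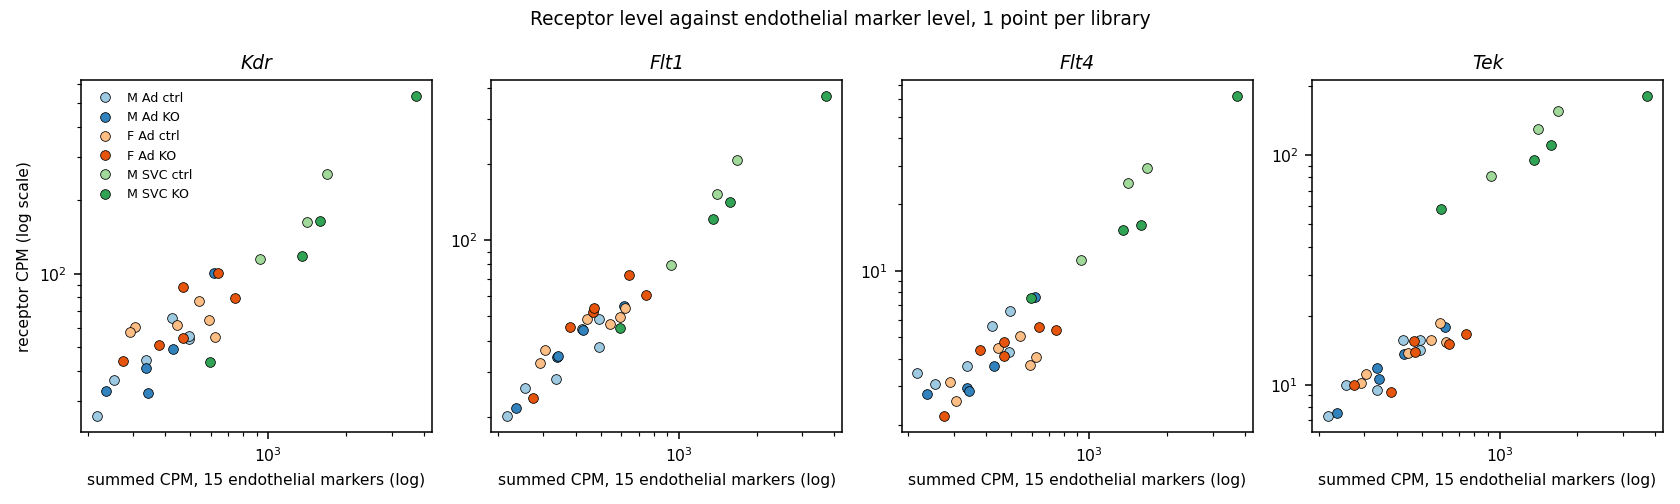
CPM of each receptor gene (log axis) against the summed CPM of 15 endothelial markers (log axis), 1 point per library and 1 colour per group. Kdr and Flt1 form 1 band over both fractions and Flt4 reaches lower in female control adipocytes (0.632 to 1.07 per 100 endothelial CPM) than in control SVC (1.21 to 1.78), whereas the SVC libraries lie above the adipocyte libraries for Tek, at 9.06 against 3.31 per 100 endothelial CPM in controls.

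The knockout libraries gave the same directions in the comparison of fractions. Again 10 of 10 genes were called, 3 higher and 7 lower in adipocytes, where 76.5% of all genes tested were called (31.8% higher and 44.7% lower). The groups did not overlap in 6 of the 10, and in 62.8% of all genes. Vegfb was at 213, 217, 229, 215 and 193 CPM in the 5 male knockout adipocyte libraries and at 14.2, 14.7, 19.5 and 15.1 CPM in the 4 SVC knockout libraries, and did not overlap. Its log2 difference was 4.19 (SE 0.17, adjusted p = 5.18e-12). Vegfa was at 319.7, 398, 250, 289 and 139 CPM in knockout adipocytes and at 89.0, 97.2, 77.0 and 49.0 CPM in knockout SVC. Knockout adipocyte replicate 5 was the lowest of its group and still above all 4 SVC libraries. The difference was 2.26 (SE 0.26, adjusted p = 5.02e-07), and that of Angpt1 was 1.08 (SE 0.23, adjusted p = 0.000356), or 0.64 with library totals alone (adjusted p = 0.0128).

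Tek in SVC knockout libraries was at 181, 111, 95.1 and 58.4 CPM, above all 5 knockout adipocyte libraries (7.53 to 17.9 CPM), and the log2 difference was -2.75 (SE 0.33, adjusted p = 8.49e-07). Vegfc and Pgf did not overlap either, with differences of -4.19 and -2.37 (adjusted p = 1.91e-09 and 5.93e-07). Kdr, Flt1 and Flt4 overlapped between fractions, and so did Angpt1. For Kdr the SVC knockout libraries were at 535, 165, 118 and 43.6 CPM and the knockout adipocytes at 32.9, 40.9, 49.3, 32.3 and 100.6 CPM. SVC knockout replicate 1 was the highest and replicate 4 lay within the adipocyte values.

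The sizes for these receptors leaned on SVC knockout replicate 1. Kdr differed by -1.65 with it (SE 0.54, adjusted p = 0.0113) and by -0.67 without it (SE 0.45, adjusted p = 0.184), so the call was lost. Flt1 went from -1.74 to -1.01 (adjusted p = 0.0267 without it) and Flt4 from -2.24 to -1.27 (adjusted p = 0.00662), and both remained called. Angpt2, which endothelial cells make, went from -1.88 to -1.16 (adjusted p = 0.0138). In that library Flt1 was at 370.4 CPM, Flt4 at 61.9 CPM and Angpt2 at 27.1 CPM, each the highest of all 30 libraries.

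**Figure D3:**
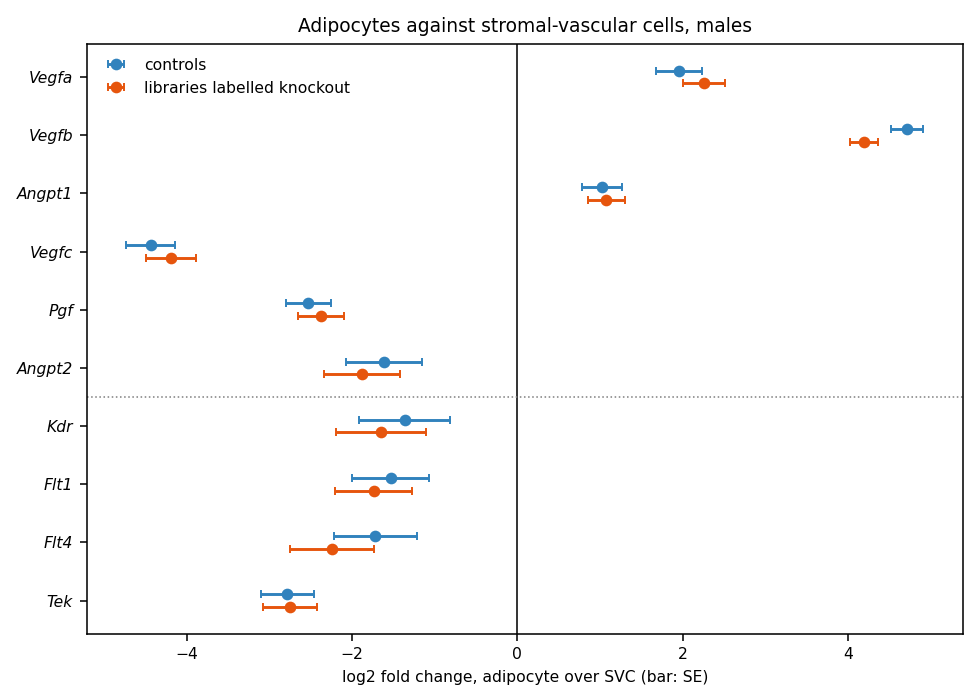
Log2 difference of adipocytes over SVC in males (x axis) for the 6 ligand genes (above the dotted line) and 4 receptor genes, in controls and in libraries labelled knockout, with bars of 1 SE. Vegfa, Vegfb and Angpt1 lie to the right of 0 and the other 7 genes to the left, from 4.72 for Vegfb to -4.43 for Vegfc in controls.

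Levels of different genes were set side by side per length, as CPM per kilobase of exon. The length is that of all annotated exons of a gene merged, 13.504 kb for Flt1 and 4.712 kb for Tek. The order depends on these lengths, and which transcripts were present was not tested. In male control adipocytes Vegfb (136.5 ± 10.9, n = 6) was above Vegfa (53.4 ± 6.39), and these stood far above the rest. Kdr (5.21 ± 1.59) and Angpt1 (4.09 ± 0.679) came next and did not differ beyond their spread, and neither did Tek (2.55 ± 0.760) and Flt1 (2.53 ± 0.826). Pgf, Angpt2, Flt4 and Vegfc followed at 0.863, 0.575, 0.540 and 0.320 CPM per kilobase, with Pgf and Angpt2, and Angpt2 and Flt4, within the spread of each other. In control SVC the order differed, with Tek (25.9 ± 7.94, n = 3), Vegfa (20.1 ± 2.39) and Kdr (19.7 ± 8.04) at the top and within each other's spread. Flt1 (10.8 ± 4.73) and Vegfc (10.25 ± 3.01) were followed by Vegfb (7.46 ± 1.34) and Pgf (7.35 ± 2.14), and Angpt1, Flt4 and Angpt2 were lowest at 2.92, 2.65 and 2.59.

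The other genes of these pathways were counted from 4 lists. Over all genes tested 77.1% were called between control fractions, 32.8% as higher in adipocytes and 44.2% as lower. Being called thus does not set these lists apart. Of 9 co-receptors and related ligands, none was higher and 7 were lower in male control adipocytes than in control SVC, with a median log2 difference of -1.63. Nrp2, a co-receptor of VEGF-C, differed by -2.63 on the log2 scale (adjusted p = 1.5e-08), and Itga9, an integrin subunit needed for lymphatic valves, by -4.30 (adjusted p = 5.22e-11). Svep1, a matrix protein needed for lymph vessel growth, differed by -2.74 (adjusted p = 2.37e-07). Of 25 signalling genes downstream of the receptors, 7 were higher and 12 lower (4 and 19 with library totals alone). The kinase Fyn was lower (-4.84, adjusted p = 8.44e-12), and so were the adaptors Dok2 (-3.26, adjusted p = 2.37e-09) and Sh2d2a (-8.37, adjusted p = 2.03e-10), the last being nearly undetected in adipocytes at 0.0603 ± 0.0369 CPM. Nos3, the endothelial nitric oxide synthase, went the other way from the receptors at 63.7 ± 7.19 CPM in control adipocytes (n = 6) and 23.9 ± 11.3 CPM in control SVC (n = 3), a log2 difference of 2.00 (SE 0.52, adjusted p = 0.00246). In knockouts it was 1.24 (adjusted p = 0.0217) and lost the call without male adipocyte knockout replicate 5 (0.84, adjusted p = 0.0841), SVC knockout replicate 2 (adjusted p = 0.0583) or replicate 3 (adjusted p = 0.0631). The knockout call of Nos3 was also lost with library totals alone (0.82, adjusted p = 0.107) and with only the 2 groups in the fit (adjusted p = 0.081). Pik3r1, a regulatory subunit of phosphoinositide 3-kinase, and Plcg1, the phospholipase that VEGFR2 recruits, were higher by 1.96 and 1.53 (adjusted p = 9.84e-07 and 1.81e-05).

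Vegfa is a classical target of the hypoxia-inducible factors, and other genes of the hypoxia response were counted beside it. Over all genes 32.8% were called higher and 44.2% lower in control adipocytes. Of 17 hypoxia genes tested, 10 were higher and 3 lower there, with a median log2 difference of 0.67 beside -0.30 for all genes. That split rests on the scaling: with library totals alone 6 were higher and 6 lower, with a median of 0.11 beside -0.85, and Arnt, Egln1, Egln2 and Pgk1 lost their calls (0.11, 0.01, 0.31 and 0.17). In knockouts it was 11 higher and 3 lower, where 31.8% of all genes were called higher and 44.7% lower. With library totals alone it was 5 and 3. The mitophagy receptor Bnip3 was at 553 ± 71.0 CPM in control adipocytes (n = 6) and 32.3 ± 5.04 CPM in control SVC (n = 3), with a log2 difference of 4.62 (adjusted p = 2.94e-10). Pfkfb3, a regulator of glycolysis, and Ldha, lactate dehydrogenase A, were higher by 3.29 and 2.23 (adjusted p = 7.74e-10 and 4.09e-07). Egln3, Ankrd37 and Ndrg1 were lower, with differences of -1.21, -2.07 and -0.62 (adjusted p = 0.00556, 0.000111 and 0.0268), and Hif1a did not pass the test (0.02, adjusted p = 0.897). Ndrg1 lost the call without male adipocyte control replicate 5 (adjusted p = 0.0538), SVC control replicate 1 (0.0749) or SVC control replicate 2 (0.0777). Of 25 other regulators of vessel growth, 4 were higher and 16 lower. Angptl4, an inhibitor of lipoprotein lipase, was higher by 4.61 (adjusted p = 6e-10) and the growth factor Fgf2 by 1.41 (adjusted p = 1.02e-05). Between the knockout fractions Fgf2 and Thbs1, a matrix inhibitor of vessel growth, were higher in adipocytes by 2.05 and 1.96 (adjusted p = 5.86e-08 and 5.2e-06). The guidance genes Slit2 and Sema3a and the chemokine receptor Cxcr4 were lower, with differences of -4.73, -4.60 and -3.62 (adjusted p = 4.74e-10, 2.13e-05 and 7.11e-10).

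The genotype comparison sets libraries labelled knockout beside controls, and none of the 10 passed the test in any fraction or sex. In male adipocytes 0 of 10 were called, where 0.0703% of the 14227 genes tested were (10 genes, and 332 genes without knockout replicate 5, with 0 members still). In female adipocytes it was 0 of 10, where 0.471% of all genes were called, and in SVC 0 of 10, where 0% were. DESeq2 and limma-voom also called 0 of the 10 in each. At an unadjusted p below 0.05 there were 0 members in males, 1 in females and 0 in SVC. On simulated counts the SVC fit recovered 0% of 2-fold and 23.4% of 4-fold changes. The lack of calls in SVC thus does not show that levels are alike. In adipocytes the fits recovered 60% of 1.5-fold changes in males and 38.8% in females, so differences of that size can be missed there too. The largest member difference there was 1.62-fold (Angpt1 in females).

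Vegfa was at 319.7, 398, 250, 289 and 139 CPM in male knockout adipocytes, beside 192.5 to 266 CPM in controls. In 4 of the 5 knockout libraries it lay above the control median, and in replicate 5 below every control. Between genotypes the log2 difference was 0.25 (SE 0.21, adjusted p = 0.648), and it was 0.42 without replicate 5 (SE 0.19, adjusted p = 0.215). In female adipocytes Vegfa ranged from 217 to 471 CPM in controls (median 317) and from 195 to 304 CPM in knockouts (median 240.4), with overlap, and differed by -0.38 (SE 0.20, adjusted p = 0.537). The genotype effect in females minus that in males was -0.63 (SE 0.29, unadjusted p = 0.0423, adjusted p = 0.548). It did not pass, in a comparison where 0.0141% of all genes were called.

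Angpt1 was the gene with an unadjusted p below 0.05 in female adipocytes. Its 6 control libraries ranged from 6.81 to 17.3 CPM (median 10.5) and its 6 knockout libraries from 9.10 to 23.5 CPM (median 19.6). The ranges overlapped, with 2 of the 6 knockout libraries below the control mean of 11.2 CPM. Knockouts were higher by 0.69 on the log2 scale (SE 0.26, unadjusted p = 0.0143, adjusted p = 0.332). In male adipocytes it was -0.27 (SE 0.27, adjusted p = 0.702), with 17.6 to 27.1 CPM in controls and 15.3, 24.0, 16.2, 22.3 and 12.5 CPM in knockouts. The genotype effect in females minus that in males was 0.97 (SE 0.38, unadjusted p = 0.0171, adjusted p = 0.484).

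In SVC the groups of 1 of the 10 genes, Vegfb, did not overlap between genotypes, and those of 3.91% of all genes tested did not. The 3 control libraries were at 9.53, 12.8 and 13.6 CPM and the 4 knockout libraries at 14.2, 14.7, 19.5 and 15.1 CPM. Their log2 difference was 0.42 (SE 0.24, adjusted p = 0.968). Summed adipocyte markers, which were at 282 to 815 CPM in control SVC and at 409.7 to 1562 CPM in knockout SVC, moved the same way. Their part in the Vegfb values was not tested. The genotype effect on Vegfb differed between adipocytes and SVC by -0.53 (SE 0.21, unadjusted p = 0.0238, adjusted p = 0.713), in a comparison where 0% of the genes were called.

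The receptors showed small differences with wide errors. In male adipocytes Kdr, Flt1, Flt4 and Tek differed between genotypes by 0.10, 0.13, -0.19 and 0.01 on the log2 scale (SE 0.21 to 0.28). Without knockout replicate 5 they were -0.31, -0.05, -0.58 and -0.17, none of them called, so 3 of the 4 changed sign. In female adipocytes the differences were 0.22, 0.28, 0.27 and 0.00 (SE 0.20 to 0.26). In SVC they were 0.32, 0.26, 0.26 and -0.08, with SE of 0.79, 0.67, 0.72 and 0.37, and without knockout replicate 1 they were -0.64, -0.44, -0.67 and -0.40 (adjusted p = 0.850 for each). With the endothelial marker level as a covariate the SVC differences of Kdr, Flt1 and Flt4 were -0.46, -0.28 and -0.34, none of them called. Angpt2 differed by 0.23 in males, 0.53 in females and 0.43 in SVC (SE 0.36, 0.33 and 0.59). Without knockout replicate 5 it was -0.02 in males, and without knockout replicate 1 it was -0.26 in SVC. These 2 libraries carry the same number, 6, in their column names and may not be independent. Neither Pgf nor Vegfc passed in any of these comparisons.

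**Figure D4:**
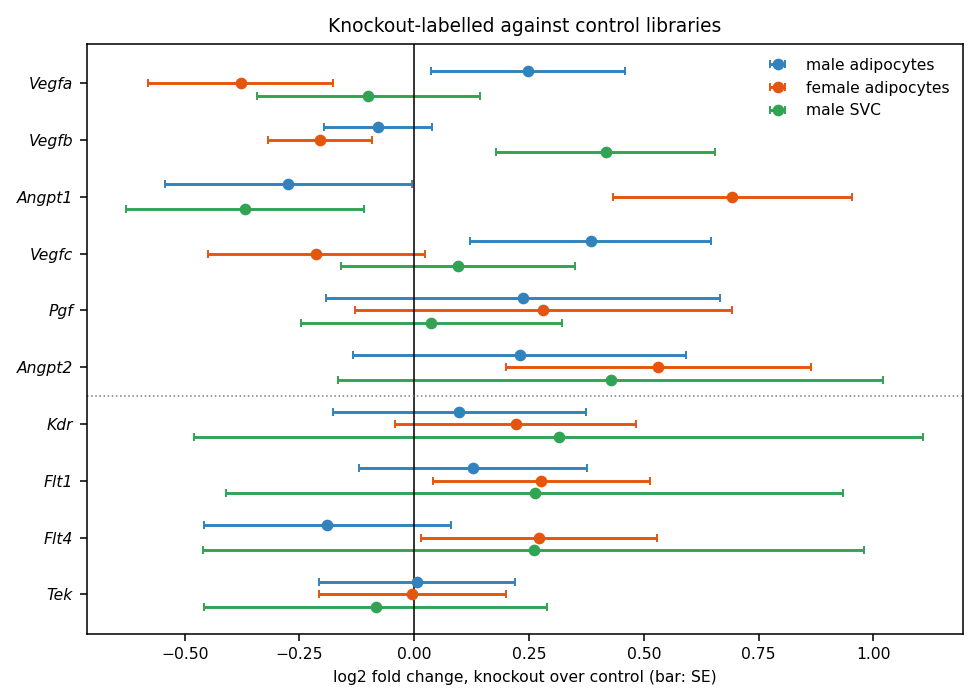
Log2 difference of libraries labelled knockout over controls (x axis) for the 10 genes, with bars of 1 SE, in male adipocytes, female adipocytes and male SVC. The largest difference is that of Angpt1 in female adipocytes at 0.69 (adjusted p = 0.332), and no gene passed the test.

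None of the genes in the 4 pathway lists was called between genotypes either (edgeR). DESeq2 called Map2k1 in males, Vegfd, Ccbe1 and Vldlr in females and Fgf1 in SVC (adjusted p = 0.00532, 0.0168, 0.0288, 0.0419 and 0.000902). Vegfd, a further ligand of VEGFR3, had the smallest p of the co-receptor list in females, with 19.3 ± 3.39 CPM in controls and 26.6 ± 2.39 CPM in knockouts (n = 6 each) and a log2 difference of 0.53 (SE 0.14, adjusted p = 0.0832). Map2k1, a kinase of the MAPK cascade, had the smallest in males (0.39, SE 0.08, adjusted p = 0.0714 by edgeR). It was called without male control replicate 2 (adjusted p = 0.0213) or knockout replicate 5 (0.0379). Without the latter Vldlr, a lipoprotein receptor, and Nos3 were called too (0.46 and -0.53, adjusted p = 0.0386 and 0.0420). Vegfd was called in females without control replicate 5 (0.60, adjusted p = 0.0458). In SVC the smallest was that of Fgf1, a fibroblast growth factor (-1.75, SE 0.37, adjusted p = 0.968), which was also called with all 30 libraries in the fit (-1.72, adjusted p = 0.0141). The genotype difference of Fgf1 between adipocytes and SVC was called by DESeq2 (1.99, adjusted p = 0.000283) and without SVC control replicate 2 (2.31, adjusted p = 0.0213). That of Vegfd between the sexes was called by DESeq2 (0.83, adjusted p = 0.0309) and without male knockout replicate 5 (0.94, adjusted p = 0.0466), and that of Nos3 without the latter (0.87, adjusted p = 0.0496).

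Female and male control adipocytes differed in 3 of the 10 genes, all ligands, where 43.8% of all genes tested were called, 23.7% as higher in females and 20.1% as lower. That share of members is below the background. Angpt1 ranged from 6.81 to 17.3 CPM in the 6 female controls (median 10.5) and from 17.6 to 27.1 CPM in the 6 male controls (median 21.1), so that every female library was below every male one. The groups did not overlap in 20.7% of all genes tested. As a log2 difference of females from males this was -0.93 (SE 0.26, adjusted p = 0.00625). The CPM of Angpt2 per CPM of Angpt1 was 0.339 ± 0.186 in females and 0.10 ± 0.0443 in males (n = 6 each), and Angpt2 itself did not pass (0.59, adjusted p = 0.172).

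Vegfc was higher in females, at 0.978 to 2.07 CPM (median 1.60) beside 0.363 to 1.36 CPM in males (median 0.769), with overlap. On the log2 scale females were higher by 0.96 (SE 0.25, adjusted p = 0.00322), at 8 to 44 reads a library. Summed preadipocyte and fibroblast markers were at 792 to 1279 CPM in female and 444 to 644 CPM in male control adipocytes, and their part in this difference was not tested. Vegfa was higher in females, at 217 to 471 CPM (median 317) beside 192.5 to 266 CPM (median 233), with overlap, and differed by 0.53 (SE 0.20, adjusted p = 0.0370). It lost the call without any 1 of male control replicates 1, 2, 3, 4 and 6 (adjusted p = 0.0613, 0.0609, 0.0914, 0.0718 and 0.0890) or of female control replicates 3, 5 and 6 (0.0981, 0.0842 and 0.149). Without female control replicate 6 the log2 difference was 0.35. None of the receptors passed, with differences of 0.40, 0.37, -0.24 and 0.21 for Kdr, Flt1, Flt4 and Tek. Among 15 endothelial markers 1 was called higher in females and none lower.

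Several of the related genes differed between female and male controls, where 43.8% of all genes tested were called. Of 9 co-receptors and related ligands, 1 was higher and 3 lower in female controls. Ccbe1, which is needed to activate VEGF-C, had a log2 difference of -3.76 (adjusted p = 2.98e-09), Angpt4 of -4.18 (adjusted p = 6.13e-05) and Vegfd of -0.62 (adjusted p = 0.000841), while Svep1 was higher by 1.24 (adjusted p = 0.00415). Angpt4, the third angiopoietin, was low in both, at 2.58 ± 2.04 CPM in males and 0.139 ± 0.201 CPM in females. Of 24 signalling genes 6 were higher and 7 lower, of 16 hypoxia genes 1 was higher (Egln3, 2.40, adjusted p = 9.83e-09) and 4 lower, and of 24 other regulators 7 were higher and 5 lower. Among the last, Slit2 and Cxcl12, a chemokine of stromal cells, were higher by 2.75 and 1.61 (adjusted p = 5.35e-05 and 2.99e-07), and Cxcr4, the receptor of Cxcl12, differed by -1.68 (adjusted p = 1.03e-05). Of 10 macrophage and monocyte markers 6 were lower in females and none higher, with a median of -0.94 and a sum of 270.4 to 555 CPM beside 570 to 1104 CPM in males. Of 10 preadipocyte and fibroblast markers 6 were higher and none lower. Their part in the values of Cxcr4, Slit2 and Cxcl12 was not tested.

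Within the 23 adipocyte libraries, with the mean of each group removed, the receptors varied together and with endothelial markers. Tek followed the endothelial index, the mean log2 level of those markers, with Pearson r = 0.904 (permutation p = 1e-05, adjusted 0.000108) and Spearman rho = 0.893 (p = 1e-05, adjusted 0.00013). This was 1 of 65 relations computed, and 1e-05 is the smallest p that 100000 permutations give. Without the 2 libraries farthest from the median r was 0.871, and it was 0.937 in males and 0.886 in females. Flt1 (r = 0.869, rho = 0.899, permutation p = 1e-05 for each, adjusted 0.000108 and 0.00013) did likewise, with r = 0.830 without the farthest 2, 0.941 in males and 0.790 in females. For Kdr r was 0.757 (permutation p = 0.00021, adjusted 0.00091) and rho 0.796 (p = 0.00012, adjusted 0.0006), with 0.670 without the farthest 2, 0.902 in males and 0.573 in females. For Flt4 r was 0.797 (permutation p = 3e-05, adjusted 0.000279) and rho 0.823 (p = 2e-05, adjusted 0.000162). Its r was 0.773 without the farthest 2, 0.853 in males and 0.737 in females. Angpt2 varied with the receptors: with the endothelial index its r was 0.868 and its rho 0.867 (permutation p = 1e-05 for each, adjusted 0.000108 and 0.00013), 0.848 without the farthest 2, 0.940 in males and 0.824 in females.

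Vegfa, Vegfb and Angpt1 did not follow the endothelial index in the positive direction. For Vegfa r was -0.489 (permutation p = 0.0254, adjusted 0.0501), rho was -0.477 (p = 0.0277, adjusted 0.050), and r was -0.466 without the farthest 2, -0.371 in males and -0.607 in females. With the index of adipocyte markers Vegfa gave r = 0.574 (permutation p = 0.00794, adjusted 0.0191) and rho = 0.641 (p = 0.00882, adjusted 0.0189). That relation stood at 0.486 without the farthest 2, and at 0.094 in males and 0.855 in females, so it did not hold within males. Vegfb and Angpt1 gave r = 0.768 (permutation p = 0.00024, adjusted 0.000975) and rho = 0.709 (p = 0.00097, adjusted 0.00315). Here too the relation was seen in females (r = 0.908) and not in males (0.141), and r was 0.669 without the farthest 2. The permutations took all libraries as independent. Female control and knockout libraries of the same title number correlated over all genes at 0.06 to 0.714, so these p-values may be too small.

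The genes whose pattern over the 23 adipocyte libraries was most like that of 3 members were found among 9335 genes by Pearson's r after removing group means. For Vegfa these were Acvr1c, an activin receptor of adipocytes (0.876), Pdzrn3 (0.870) and Msrb3 (0.852). For Kdr they were Fgd5, an endothelial exchange factor (0.917), Tmem110 (0.911) and Cdh13, T-cadherin (0.909). For Angpt1 they were Prlr, the prolactin receptor (0.933), Nt5e, an ectonucleotidase (0.894), and Micall1 (0.867). All 23 libraries share their fraction and preparation, and these values are a description.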

How the data were processed

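Raw counts of reads for each gene were deposited by the authors and used as they stand. A second deposited table, of transformed log2 values, was not used. The submitters' processing notes name STAR 2.7.11a, FastQC 0.12.1, DESeq2 and build mm39. How reads were assigned to genes, by strand or not and with which annotation, was not given in the sources used here, so reads of overlapping genes may be shared. No pair of libraries of 1 group matched within counting noise (lowest chi-square per degree of freedom 11.9).

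Genes were tested in R 4.3.3 with edgeR 4.0.16 (quasi-likelihood, robust, TMM scaling, filterByExpr at a minimum count of 10), p-values were adjusted by Benjamini-Hochberg over all genes tested, and calls were those below 0.05. One fit of the 23 adipocyte libraries gave the genotype and sex comparisons, 1 of the 7 SVC libraries the SVC genotype comparison, and 1 of the 18 male libraries the comparison of fractions. Lengths are merged exons of GENCODE vM21, and upstream windows are RefSeq's on GRCm38.p6 (8 of the 10 members matched). Correlations used 100000 permutations within groups. The procedure was tested on simulated counts with known changes. The male adipocyte genotype fit recovered 60% of 1.5-fold, 80% of 2-fold and 98% of 4-fold changes, and the female fit 38.8%, 82% and 100%. The SVC genotype fit recovered 0% of 1.5-fold and of 2-fold changes, 23.4% of 4-fold and 52.3% of 8-fold changes. Members and lists were chosen with earlier results of these data known. The naming rule took all members and the 3 genes most like Vegfa, Kdr and Angpt1. In the comparison of fractions it took the 3 called genes of largest change each way per pathway list. Elsewhere it took called genes, or otherwise the gene of smallest p. Not all of these are named in the text, and between the sexes no called signalling gene is. Hif1a, Arnt, Egln1, Egln2 and Pgk1, and Nos3 and Vldlr in the genotype comparisons, were named after their values were seen. A gene of the signalling list enters its counts and is not reported here by itself. As alternatives, scaling, filter, tool (DESeq2 1.42.0, limma-voom of limma 3.58.1), the libraries fitted, replicate blocks and an endothelial covariate were varied, and each library was left out in turn.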

Additional observations from a re-analysis of the deposited data

Results flagged for a closer look

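Of 50 sets of values (a gene in a group of 4 to 10 libraries), 4 had a library far from the others. The sets share libraries and are not independent, and whether chance gives as many was not tested. Flt4 in SVC knockout replicate 1 was at 61.9 CPM, and the nearest other library of that group at 16.2 CPM. Flt4 in male adipocyte knockout replicate 5 was at 7.63 CPM, with the nearest at 3.70 CPM. Kdr in the same adipocyte library was at 100.6 CPM, with the nearest at 49.3 CPM. Vegfc in female adipocyte knockout replicate 4 was at 2.04 CPM, with the nearest at 1.31 CPM. The summed endothelial markers were also highest of their groups in SVC knockout replicate 1 (3724 CPM) and male adipocyte knockout replicate 5 (616 CPM). Both libraries carry the number 6 in their column names, and the labels do not state whether they come from 1 mouse.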

How the results depend on the processing

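The number of members called stayed between 8 and 10 in the comparison of fractions for controls and for knockouts, between 2 and 3 between sexes, and at 0 in every genotype comparison and alternative run. Of 1334 alternative values for members, 24 lost a call, none gained one, and 59 changed sign, none of these called on either side. Counts over all genes moved more: from 10 in males to 159 with DESeq2, 25 with the endothelial covariate, 6 with only the 2 groups, 2 with all 30 libraries and 4 to 332 with a library left out. For females they went from 67 to 206, 116, 26, 19 and 32 to 89, and for SVC from 0 to 76 with DESeq2 and 19 with all 30 libraries. For the difference of the genotype effect between sexes they went from 2 to 23 with DESeq2 and to 22 without male knockout replicate 5. For that between fractions they went from 0 to 14 with DESeq2 and 4 with all 30 libraries. The cause was not tested.

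No set of shared replicate numbers met the rule for pairing, a correlation over 0.1 in every pair, and the labels name no shared animal. Missing that rule does not show that libraries are independent, as the main fits take them to be. By column-name number Kdr ranked alike in both fractions. Controls 4, 2 and 5 were at 257, 162.5 and 114 CPM in SVC and at 65.7, 55.35 and 44.1 CPM in adipocytes. Knockouts 6, 3 and 4 were at 535, 118 and 43.6 CPM and at 100.6, 49.3 and 32.3 CPM. Flt1 ranked alike in knockouts and not in controls. Between fractions the correlations of libraries with the same number in the column name ran from -0.051 to 0.349 in controls and 0.014 to 0.137 in knockouts, with 2 of 3 pairs over 0.1 and 2 of 3 libraries best with their own number in each. In female adipocytes title numbers gave 0.06 to 0.714, with 5 of 6 pairs over 0.1 and 2 of 6 best with their own, and with that replicate block Angpt1 differed by 0.687 between genotypes (adjusted p = 0.316). The replicate block by title number ended the calls of Kdr between fractions in controls (-1.165, adjusted p = 0.105) and of Vegfa between sexes (0.493, adjusted p = 0.0709). Between the control fractions that block joined libraries whose column-name numbers differ. The block by column number kept the control call of Kdr. It ended the calls of Kdr and Flt1 in knockouts (-0.889 and -1.047, adjusted p = 0.0549 and 0.0607). Calls were also lost for Kdr in controls with no filter (adjusted p = 0.0655) and in knockouts with limma-voom (0.0506), and for Vegfa between sexes with no filter (0.0958), limma-voom (0.0652) and all 30 libraries (0.0677).

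The following values changed sign. The genotype difference of Tek was 0.000 (RLE), -0.006 (voom), -0.023 (title block) and -0.032 (endothelial covariate) in males, 0.001 (at least 1 CPM) and 0.006 (title block) in females and 0.103 (title block) in SVC. The sex difference of Pgf was -0.011 (RLE), -0.02 (no filter), -0.011 (at least 1 CPM), -0.013 (DESeq2), -0.108 (voom), -0.093 (title block), -0.004 (only the 2 groups) and -0.005 (all 30 libraries). In SVC Pgf was -0.015 (upper quartile), -0.018 (library totals) and -0.084 (covariate), and in females -0.049 (covariate). Kdr, Flt1 and Flt4 in SVC were -0.174, -0.035 and -0.102 with voom and -0.459, -0.284 and -0.34 with the covariate, Angpt2 was -0.029 with the covariate and Vegfa 0.057 with the title block. With library totals alone the fraction difference of Foxo1 in controls was -0.001, and that of Hif1a in knockouts was -0.033. With a library left out, the male genotype differences ranged from -0.021 to 0.378 (Angpt2), -0.312 to 0.217 (Kdr), -0.048 to 0.273 (Flt1) and -0.173 to 0.137 (Tek). In females the range was -0.154 to 0.592 for Pgf and -0.066 to 0.098 for Tek, and between sexes -0.32 to 0.139 for Pgf. In SVC it was -0.258 to 0.071 (Vegfa), -0.053 to 0.321 (Vegfc), -0.191 to 0.189 (Pgf), -0.256 to 0.75 (Angpt2), -0.637 to 0.71 (Kdr), -0.438 to 0.636 (Flt1), -0.67 to 0.585 (Flt4) and -0.402 to 0.157 (Tek).

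Depth limits Vegfc in control adipocytes most, at 8 to 44 reads a library.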
